A study of Mus musculus with 15 samples.

Results

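Drd1 striatal-type projection neurons were examined in nuclei from punches enriched for the dorsal hippocampal formation (dHF) of 15 female mice. A nucleus counted as a member when at least 1000 genes were detected in it and it held at least 5 unique molecular identifiers (UMIs, each 1 counted RNA molecule) of Pde10a, at least 3 of Rarb, at least 1 of Gad1 and Gad2 together, at least 1 of Drd1 and 0 of Drd2. In all, 1000 of 124527 nuclei met this rule (0.803%), out of 134019 barcodes in the filtered matrices. The rule used measured values, so the levels of Pde10a, Rarb, Gad1, Gad2, Drd1 and Drd2 describe the members and are not results.

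The mice were C57BL6/J females of 3 groups. They were nulliparous virgin mice (NP), reproductively experienced dams that had bred, given birth, nursed and weaned a litter (control RE), and dams that in addition went through postpartum stress, with little nesting material and daily separation from the litter late in the postpartum period (stress RE). There were 6 NP, 4 control RE and 5 stress RE mice, 1 library each, in 3 batches, and batch 1 held no control RE mouse. The punches were taken on both sides over successive slices. Per the study's methods they also took in parts of cortex, thalamus and ventral hippocampus, and striatum is not named among these regions. Ages are not in the labels used here. Mice are named by their label numbers.

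Striatal projection neurons are GABAergic cells that fall into a pair of classes with opposite responses to dopamine. Cells of the direct pathway carry the D1 receptor, which couples through Golf (Gnal) and adenylyl cyclase 5 (Adcy5) to raise cAMP, and they make substance P (from Tac1) and dynorphin (from Pdyn). Cells of the indirect pathway carry the D2 receptor, which lowers cAMP, together with the adenosine receptor encoded by Adora2a and enkephalin (from Penk). Both classes are spread over striosomes, islands rich in the mu opioid receptor (Oprm1), and the surrounding matrix.

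Libraries held 40602582 to 96211264 UMIs over 5789 to 12738 barcodes, and the median member held 10934 UMIs (8846 to 18310 over mice). The members lay unevenly over the mice. Mouse 75 (stress RE) gave 437, mouse 35 (NP) 196 and mouse 77 (stress RE) 136, whereas mouse 88 (control RE) gave 2 and mouse 31 (NP) 3. Altogether 8 mice had 10 or more members and held 956 of them, and the other 7 mice held 44. Of the member barcodes, 28 also occurred in another library, but 0 were members in 2 mice. Scrublet, a caller of droplets with 2 nuclei, marked 170 members. In mouse 75 it marked 103 of 437 members, where 1298 of all 12738 barcodes were marked. In mouse 35 it marked 26 of 196 members and 661 of 9088 barcodes. Mouse 73 went the other way, with 3 of 65 members and 487 of 7805 barcodes.

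The label of the class was checked with genes that the rule did not use. Rgs9, a striatal regulator of G protein signalling, had a UMI in 94.4% of members and in 2.15% of 18214 oligodendrocytes (median 2885.5 UMIs), which should lack it. Ebf1, a transcription factor of direct-pathway cells, was detected in 84.0% of members and 4.28% of oligodendrocytes, Tac1 in 61.1% and 0.84%, and Pdyn in 37.2% and 0.494%. In the 8 mice with 10 or more members, 97.2% of members held Rgs9, at least 80.0% in each mouse. In the other 7 mice 15 of 44 members did (34.1%), which goes against the label for most of those nuclei; there they are called members by the rule only. They enter the counts, the shares and the descriptions over all 1000 members below, but not the main tests across genes, which use mice with 10 or more.

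The values at the edge of the rule were as follows. Among members, 34 held exactly 3 Rarb UMIs, of which 41.2% had Rgs9, and 4 held exactly 5 Pde10a UMIs. Just outside, 41 nuclei met every other criterion with 2 Rarb UMIs, 41.5% of them with Rgs9, and 84 lacked only Gad1 and Gad2. A single Drd1 UMI carried 376 members (37.6%).

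The upstream sequences of 3 direct-pathway genes are shown because the members are marked by a receptor that raises cAMP, and because all 3 stood on the Drd1 side in the comparison with Drd2 nuclei below. Each is the 250 bases before the RefSeq gene start on GRCm38.p6, written 5′ to 3′ on the gene's own strand. Capitals mark TGACG, the core of the cAMP response element, or its reverse complement CGTCA, searched on both strands. The Tac1 window, chr6:7554811-7555060 on the plus strand, held it 197 and 43 bases upstream of the start.
Tac1: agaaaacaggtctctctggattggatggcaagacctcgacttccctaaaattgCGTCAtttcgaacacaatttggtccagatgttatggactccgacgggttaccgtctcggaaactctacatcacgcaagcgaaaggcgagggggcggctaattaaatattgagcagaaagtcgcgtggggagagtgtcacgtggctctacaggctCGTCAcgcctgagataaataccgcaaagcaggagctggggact
The Isl1 window, chr13:116309689-116309938 on the minus strand, held it 59 and 41 bases upstream.
Isl1: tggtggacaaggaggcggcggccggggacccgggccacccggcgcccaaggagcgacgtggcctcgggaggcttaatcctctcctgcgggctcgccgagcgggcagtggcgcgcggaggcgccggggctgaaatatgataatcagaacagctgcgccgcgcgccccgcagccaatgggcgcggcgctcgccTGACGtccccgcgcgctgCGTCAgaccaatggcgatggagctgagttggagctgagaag
The Pdyn window, chr2:129699939-129700188 on the minus strand, held no match.
Pdyn: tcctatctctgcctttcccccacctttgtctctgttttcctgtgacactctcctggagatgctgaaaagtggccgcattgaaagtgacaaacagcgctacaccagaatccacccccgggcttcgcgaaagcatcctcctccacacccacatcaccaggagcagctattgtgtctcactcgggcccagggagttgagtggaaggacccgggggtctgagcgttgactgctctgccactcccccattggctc
The motif was looked for with 11 symbols, chosen with their values in these data known. They were Drd1, which is in the rule, the genes of the direct-pathway list used below other than Chrm4, and Impg1, Il20ra and Cntnap3, which are in no list and were taken for the size of their difference. Of these, 10 had an entry (Eya1 had none), with 13 windows in all, and 3 of these held the motif (Tac1, Isl1 and Slc35d3). It stood in 17.8% of all 32851 windows of this length. A match is a run of letters and not a binding site.

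Across all nuclei with at least 1000 genes, the genes with the highest ratio of members to other nuclei, given as a description because the nuclei were picked by striatal genes, were led by Impg1, which encodes a matrix proteoglycan. Impg1 stood at 112 CPM (UMI counts scaled to 1000000 UMIs) in members and 0.981 CPM in the other nuclei, a fold of 115. Other genes without a part in the rule followed, among them the sugar transporter gene Slc35d3 (fold 60.4), the homeobox gene Isl1 (58.7), the cytokine receptor gene Il20ra (58.4), Sh3rf2 (52.8) and Tac1 (44.2). Mhrt (59.8) and Myh7 (35.0) are overlapping genes on opposite strands of chromosome 14, with 3.67 kb in common. Whether reads of either were counted for the other was not tested. The retinoid receptor gene Rxrg (33.6) and Rgs9 (27.9) were also among the leading genes, and Ppp1r1b, which encodes the dopamine-regulated phosphatase inhibitor DARPP-32, stood at 99.6 CPM in members and 4.17 CPM elsewhere (fold 23.9). These last 3 genes are not particular to the members. In the comparison with Drd2 nuclei below, their log2 differences were 0.15, -0.06 and -0.10 and did not pass.

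The peptides divided the members further. A UMI of both Tac1 and Pdyn was found in 25.5% of members, of Tac1 without Pdyn in 35.6%, of Pdyn without Tac1 in 11.7%, and of neither in 27.2%. Over the 8 mice with 10 or more members the share with Tac1 ran from 46.2% to 79.2% and the share with Pdyn from 30.4% to 55.4%. Penk, the indirect-pathway peptide gene, had a UMI in 8.0% of members and Adora2a in 0.9%, against 1.45% and 0.22% in the shallower oligodendrocytes. Shares with a UMI depend on depth, and missing UMIs do not show that a gene is silent.

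The first comparison asked how many such nuclei each group held. The share of members among nuclei with at least 1000 genes was 0.592% ± 0.887 (SD, n = 6) in NP mice. It was 0.195% ± 0.14 (SD, n = 4) after reproductive experience alone and 1.3% ± 1.62 (SD, n = 5) in the stress RE mice. The NP shares ran from 0.0517% in mouse 31 (95% Wilson interval 0.0176% to 0.152%) through a median of 0.122% to 2.28% in mouse 35 (1.99% to 2.62%). In control RE, mouse 88 had 0.0198% (0.00544% to 0.0722%), mouse 66 0.155% (0.0937% to 0.255%), mouse 72 0.26% (0.175% to 0.386%) and mouse 87 0.344% (0.25% to 0.474%). In stress RE, mouse 90 had 0.0661% (0.0303% to 0.144%), mouse 70 0.173% (0.0909% to 0.328%), mouse 43 0.584% (0.438% to 0.778%), mouse 77 1.72% (1.46% to 2.04%) and mouse 75 3.95% (3.6% to 4.33%). The ranges of all 3 groups overlapped, and the highest mouse gave 68.1%, 47.4% and 68.9% of the members of NP, control RE and stress RE.

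**Figure D1:**
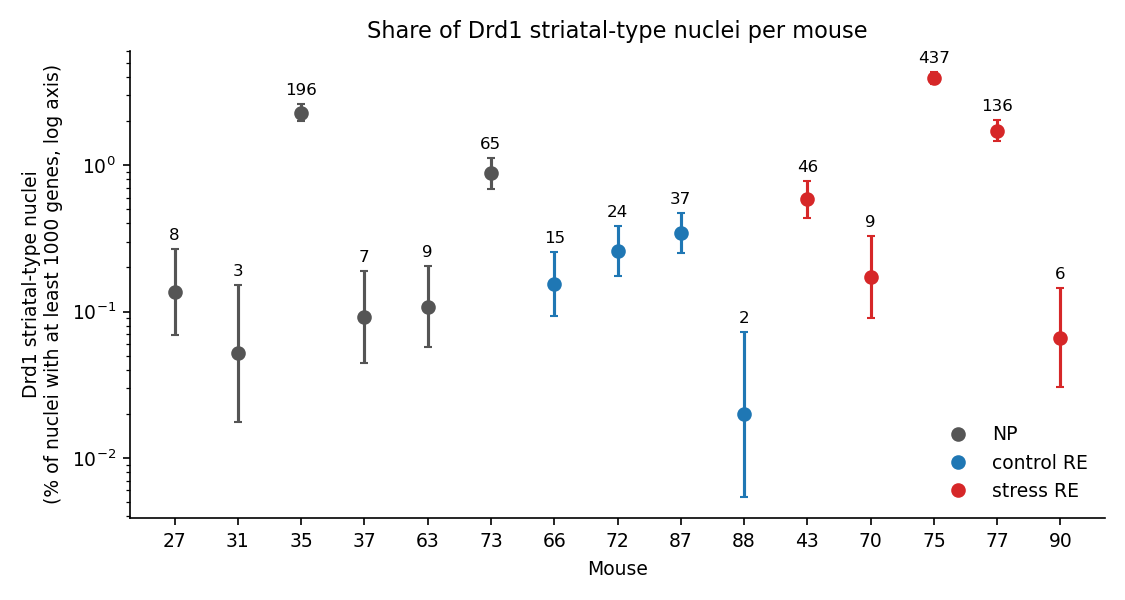
Share of Drd1 striatal-type nuclei in each of the 15 mice, as a percentage of nuclei with at least 1000 genes on a log axis, with the number of members above each point. Points are mice coloured by group and whiskers are 95% Wilson intervals, which cover counting error only; shares range from 0.0198% to 3.95% and the groups overlap.

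No difference passed an exact two-sided permutation test over mice. Stress RE minus control RE was 1.1 percentage points (exact p = 0.254, Benjamini-Hochberg adjusted p = 0.586 over the 3 contrasts), stress RE minus NP 0.707 (exact p = 0.411, adjusted p = 0.586) and control RE minus NP -0.398 (exact p = 0.586, adjusted p = 0.586). The smallest p these designs allow is 0.00794, 0.00216 and 0.00476. Without the highest mouse of each group the means were 0.637%, 0.145% and 0.254% in stress RE, control RE and NP. Without mouse 75 alone, stress RE minus control RE was 0.442 points and stress RE minus NP 0.0449, and without mouse 35 alone control RE minus NP was -0.059. Within batches, stress RE minus control RE was 0.756 points in batch 2 and 2.02 in batch 3, control RE minus NP was -1.06 and -0.237, and stress RE minus NP was 0.079, -0.301 and 1.78 in batches 1, 2 and 3, so that the last changed sign between batches. How much striatal-type tissue a punch held was not tested.

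The share of Drd1-only nuclei was also taken among the 2711 nuclei that met the Pde10a, Rarb and Gad criteria, called striatal-type. Of these, 36.9% were Drd1-only, 33.6% Drd2-only (910 nuclei), 2.14% held both receptors and 27.4% neither. Per mouse the Drd1-only share was 23.9% ± 12.2 (SD, n = 6) for NP, 23.5% ± 11.3 (n = 4) for control RE and 30.6% ± 14.8 (n = 5) for stress RE, with adjusted exact permutation p = 0.957 for control RE minus NP and 0.69 for both other contrasts. After each nucleus was thinned to 2000 UMIs (2 were shallower and left out), the same shares came to 6.63% ± 6.27, 8.01% ± 2.53 and 9.86% ± 7.09. Nuclei with neither receptor made up 74.1% of striatal-type nuclei in the 7 mice with few members and 21.7% in the other 8. Their median depth was 13925 UMIs, and 52.1% of them held Rgs9. The Drd1-only share had a median of 13.8% (10.5% to 24.2%) in the 7 mice and 37.3% (20.0% to 44.4%) in the 8. These mice were split by their number of Drd1-only nuclei, which is the numerator of this share. Both this difference and that in nuclei with neither receptor are thus partly built in by the split. Their part in the group values was not tested. Over the 8 mice with 10 or more members the ratio of Drd1-only to Drd2-only nuclei ran from 0.881 (mouse 87) to 2.18 (mouse 72), and 1.09 over all of them (956 to 881).

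The second comparison set Drd1-only against Drd2-only nuclei of the same gate within each of the 8 mice. The direct-pathway peptide genes Tac1 and Pdyn and the transcription factor genes Ebf1, Ikzf1, Zfp521 and Foxp2 were higher in Drd1-only nuclei, and enkephalin, the adenosine receptor gene Adora2a, the kainate receptor gene Grik3 and the delta opioid receptor gene Oprd1 were higher in Drd2-only nuclei. With edgeR's quasi-likelihood test on counts summed per mouse and class and the mouse as a block, 506 of 7920 genes passed an adjusted p of 0.05, 276 higher in Drd1-only nuclei (3.48% of genes tested) and 230 lower (2.90%), and 294 went the same way in all 8 mice. The genes of the rule were left out of these calls.

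Tac1 stood at 64.6 CPM in the lowest mouse, 101 CPM in the median and 160 CPM in the highest in Drd1-only nuclei, and at 0, 5.46 and 19.9 CPM in Drd2-only nuclei. Every Drd1-only pool thus lay above every Drd2-only pool, and Tac1 was 13.4-fold higher (log2 fold change 3.74 ± 0.23 SE, edgeR adjusted p = 1.19e-09, higher in 8 of 8 mice). Pdyn stood at 35.9, 51.0 and 63.8 CPM against 0, 2.39 and 8.65 CPM, without overlap, and was 18.4-fold higher (log2 4.20 ± 0.19 SE, edgeR adjusted p = 1.42e-11). Ebf1 stood at 381, 460 and 528 CPM against 0, 12.2 and 32.2 CPM, a 28.0-fold difference and the largest of the 5 tested genes of the direct-pathway list (log2 4.81 ± 0.23 SE, edgeR adjusted p = 1.89e-11).

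All 5 tested genes of the list of 8 direct-pathway genes were higher in Drd1-only nuclei, with a median log2 difference of 3.74 where the median over all genes tested was 0.00. The other members called were Sfxn1, a mitochondrial serine transporter gene (log2 1.41), and Eya1, a transcriptional coactivator gene (0.97, higher in 6 of 8 mice). Sfxn1 lies 16.2 kb from Drd1 on chromosome 13. Isl1, Slc35d3 and Chrm4, the muscarinic M4 receptor gene, fell under the count filter. Summed over the 8 mice, Isl1 had 249 UMIs in Drd1-only and 8 in Drd2-only nuclei (ratio of CPM 25.7, exact 95% interval 12.9 to 60.3), Slc35d3 249 and 12 (17.2, 9.65 to 33.7), and Chrm4 37 and 1 (30.6, 5.16 to 1240); these intervals cover counting error only. The first 2 thus lay on the Drd1 side well beyond counting error, and the Chrm4 ratio is loose because its reference count is 1.

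Of the genes named by size, Il20ra, a subunit of the interleukin-20 receptor, had the highest log2 difference (6.17 ± 0.36 SE, edgeR adjusted p = 5.57e-10). It held 253 UMIs in Drd1-only and 2 in Drd2-only nuclei, a ratio of 105 with an exact interval of 28.7 to 868. Il20ra (GRCm38 chr10:19712570-19760053) lies 87.9 kb from Slc35d3. Cntnap3, a neurexin-family adhesion gene, stood at 112, 206 and 267 CPM (lowest, median and highest mouse) against 1.69, 8.5 and 20.3 CPM, and Impg1 at 78.9, 144 and 201 CPM against 0, 4.64 and 8.65 CPM. Both were separate in every mouse, with log2 differences of 4.61 and 4.52. Further down stood the chloride channel gene Cftr (3.72), the syntrophin gene Sntg2 (3.40), Otof, which encodes otoferlin (2.89), Ankfn1 (2.58), the non-coding Sox1ot (2.54), the G protein subunit gene Gnb4 (2.42), the adhesion gene Lingo2 (2.35) and the leak potassium channel gene Kcnk13 (2.28), each higher in 8 of 8 mice.

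**Figure D2:**
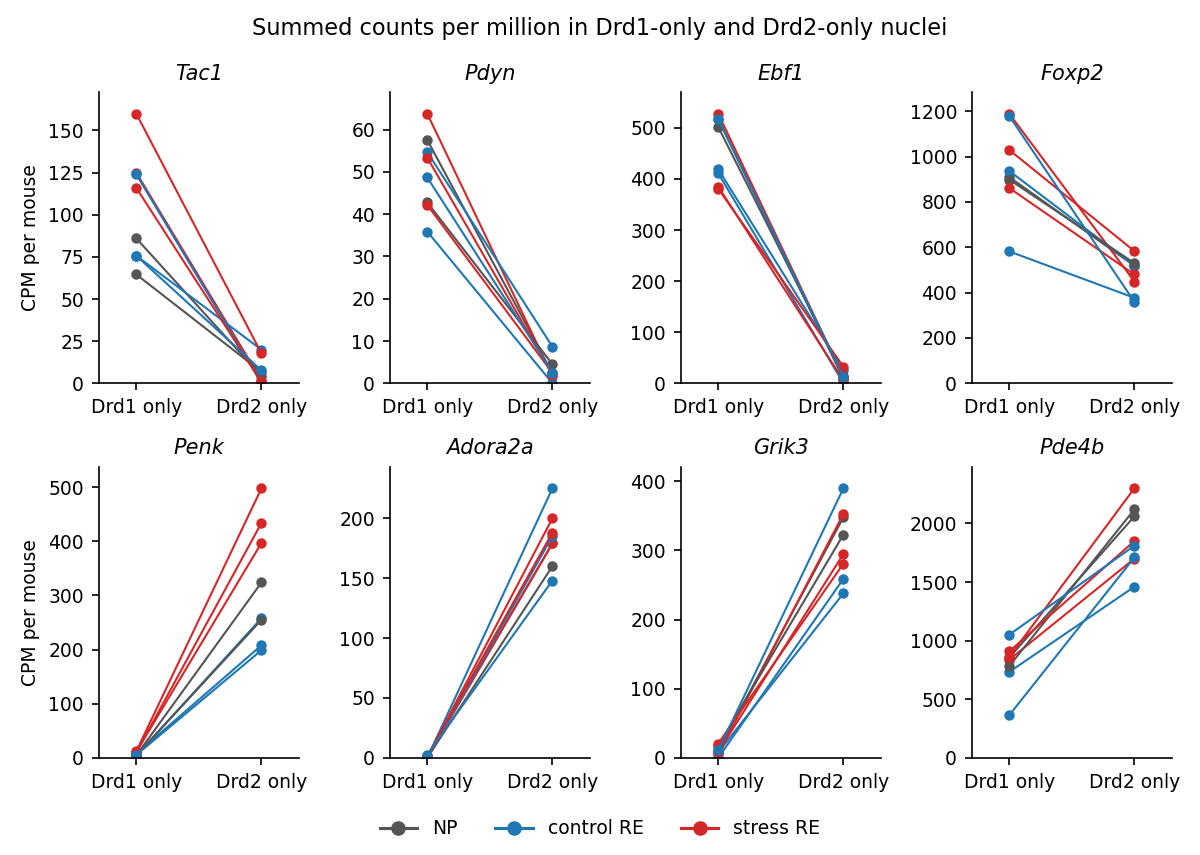
CPM of the summed nuclei in Drd1-only and Drd2-only nuclei for 8 genes, with a line for each of 8 mice coloured by group and each vertical axis starting at 0. Tac1, Pdyn and Ebf1 fall from Drd1-only to Drd2-only in every mouse, Penk, Adora2a and Grik3 rise in every mouse, and Pde4b is lower in Drd1-only nuclei in all 8.

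On the Drd2 side, Adora2a (GRCm38 chr10:75316877-75334784) stood at 0, 0.27 and 2.71 CPM in Drd1-only nuclei against 148, 182 and 225 CPM (log2 -7.64 ± 0.18 SE, edgeR adjusted p = 4.44e-16). Penk stood at 3.99, 6.35 and 11.9 CPM against 199, 291 and 498 CPM (log2 -5.54 ± 0.12 SE, edgeR adjusted p = 7.6e-17), and Grik3 at 0, 9.67 and 20.5 CPM against 238, 309 and 390 CPM (log2 -4.57). All 3 were lower in Drd1-only nuclei in 8 of 8 mice. With the receptor phosphatase gene Ptprm (-2.52), all 4 tested genes of the list of 8 indirect-pathway genes were lower in Drd1-only nuclei. Oprd1 was lower by 3.76 on the log2 scale, although the highest Drd1-only pool reached 51.8 CPM, within the Drd2-only range of 34.6 to 62.0 CPM.

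Among the genes named by size on this side, the ectonucleotidase gene Nt5e stood at 3.65, 8.6 and 10.9 CPM against 19.9, 43.8 and 69.2 CPM (log2 -2.38), and the adenosine kinase gene Adk at 63.3, 83.8 and 108 CPM against 295, 456 and 579 CPM (log2 -2.33). Neither gene's pools overlapped between the classes. Both belong to no list. The others so named were Fig4 (-2.29), Vat1l (-2.21), Nell1 (-2.04), the calcium-binding Necab1 (-1.92), Plxdc1 (-1.92), the homeobox gene Meis1 (-1.89), B3gat1 (-1.78) and Zar1l (-1.77).

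**Figure D3:**
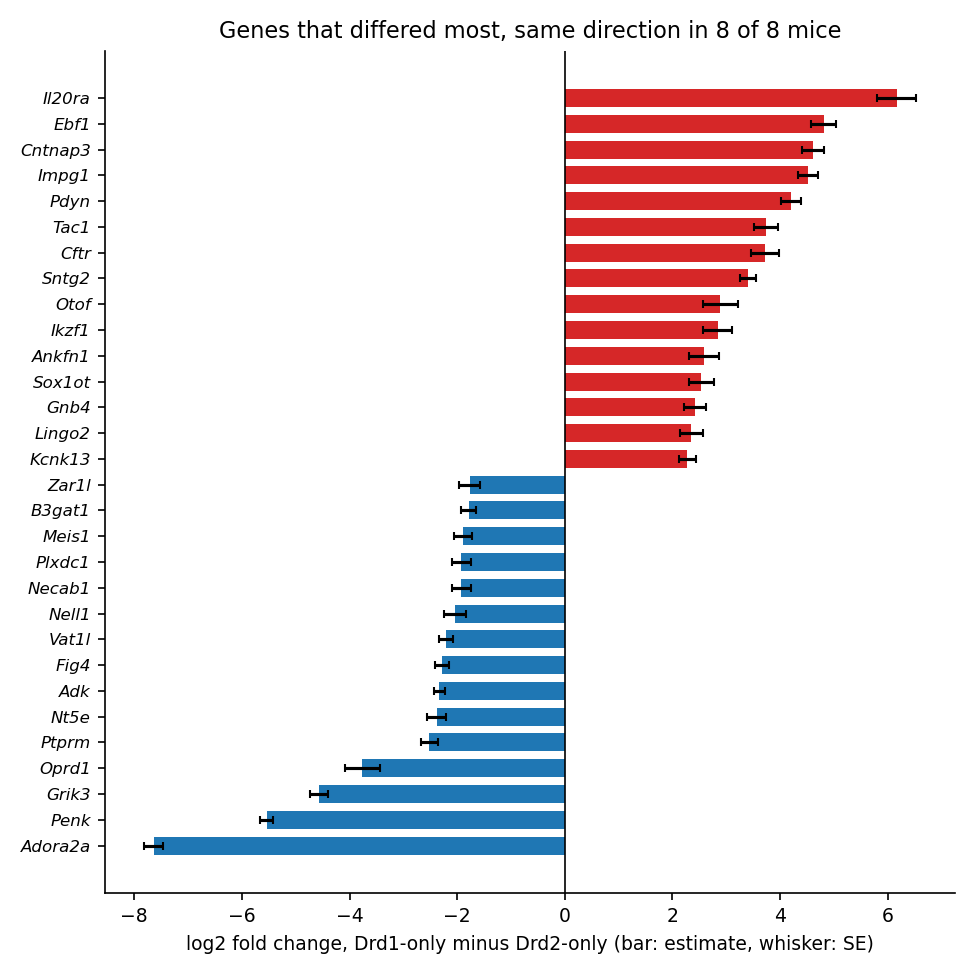
The 30 genes with the largest called differences that went the same way in 8 of 8 mice, as log2 fold changes of Drd1-only minus Drd2-only nuclei with SE whiskers. Il20ra leads the upper side at 6.17, where the Drd2-only pools held 2 UMIs in all, and Adora2a leads the lower side at -7.64.

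The tested genes of dopamine and cAMP signalling were near equal in the classes or lower in Drd1-only nuclei. Of 21 genes 18 were tested, 0 were higher, 5 were lower and 13 did not pass, with a median of -0.10. The dopamine receptor genes Drd3, Drd4 and Drd5 fell under the count filter. Of these, Drd3 stood at 3.65, 9.63 and 18.9 CPM in Drd1-only against 0, 0.232 and 2.55 CPM in Drd2-only nuclei, without overlap. Drd4 and Drd5 overlapped between the classes. The phosphodiesterase gene Pde4b was lower by 1.26 (SE 0.10) on the log2 scale in 8 of 8 mice, at 363, 846 and 1050 CPM against 1460, 1830 and 2300 CPM. Gng7 (-0.34), Gnal (-0.30) and Pde2a (-0.29) moved by less. Ppp1r1b stood at 37.9, 80.3 and 131 CPM in Drd1-only and 33.1, 81.4 and 128 CPM in Drd2-only nuclei, and Adcy5 at 462, 793 and 977 CPM against 622, 786 and 938 CPM, so that the pools of each overlapped nearly fully.

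Transcription factors divided the classes in both directions. Of 19 genes 11 were tested, 4 were higher and 2 lower. Beside Ebf1 the higher genes were Ikzf1, which encodes Ikaros (2.84), Zfp521, a partner of EBF factors (2.28), and Foxp2 (0.97), each in 8 of 8 mice. Foxp2 stood at 582, 924 and 1190 CPM against 359, 499 and 583 CPM, with the ranges meeting at their edge. Six3 (-1.11) and Foxp1 (-0.29) were lower in 8 of 8 mice. Of the peptide and peptide receptor list, 6 of 17 genes were tested, with Tac1 and Pdyn higher, Penk and Oprd1 lower and 2 not passing.

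The compartment lists moved in part. Of 7 striosome genes, 2 were higher in Drd1-only nuclei, Tshz1 (0.93, 7 of 8 mice) and Sema5b (0.82, 6 of 8 mice), and Oprm1 itself had a UMI in 19.9% of Drd1-only and 19.7% of Drd2-only nuclei. Of 6 matrix genes, 3 were lower, the calbindin gene Calb1 (-1.03), Id4 (-0.64) and Rasgrp2 (-0.42). Of the list of 6 genes of eccentric projection neurons, a class apart from both pathways, 1 of 3 tested was higher (Otof). Of ventral striatal genes 2 of 3 tested were higher, Wfs1 (1.09) and the thyroid hormone-binding Crym (0.55), and of 4 dorsal striatal genes Reln was higher (1.65) and Gpr155 lower (-0.37). Reln stood at 120, 296 and 406 CPM against 17.3, 78.0 and 150 CPM. None of the 7 genes of amygdala projection neurons passed the count filter.

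Among receptors, glutamate receptor genes went both ways. Of 19 tested, 4 were higher, Grm8, a presynaptic metabotropic receptor (1.10), Grik4 (0.52), Gria4 (0.43) and Grik2 (0.42), and 3 were lower, with Grm3 (-0.34) and Grik5 (-0.31) beside Grik3. Of 11 GABA-A receptor subunits 0 were higher and 2 lower, among them Gabra3 (-1.29). Of 6 tested muscarinic, adenosine and cannabinoid receptor genes, Chrm3 (-1.50) was lower beside Adora2a. Of 6 tested immediate early genes, Junb (-0.71, although higher in 3 of 8 mice) and Npas4 (-0.63, higher in 1 of 8) were lower and 4 did not pass, and none of 8 tested hormone and stress genes and of 2 tested dopamine-handling genes passed. Gng7, Pde2a, Rasgrp2, Chrm3, Grik5 and Grm3 were likewise higher in 1 of 8 mice, and Crym was higher in 7 of 8.

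Genes of other cells were looked at in the same pools. Of 12 tested genes in 6 lists 1 was called, the astrocyte transporter gene Slc1a2, lower in Drd1-only nuclei by 0.60 on the log2 scale and by 0.21 (adjusted p = 0.481, edgeR) without the nuclei marked by Scrublet. Summed astrocyte genes ran from 51.1 to 172 CPM in Drd1-only and 71.4 to 364 CPM in Drd2-only pools, summed oligodendrocyte genes from 83.7 to 337 and 17.3 to 344 CPM, and summed excitatory neuron genes from 13.6 to 132 and 43.3 to 123 CPM. Their part in the other differences was not tested. Without mouse 35 342 genes passed, and without mouse 77 368; without mouse 35, 9 genes of the lists no longer passed, among them Eya1, Sema5b, Rasgrp2, Junb and Npas4.

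A further comparison, added after the data had been seen, asked whether members with and without an Oprm1 UMI differed in other striosome and matrix genes. Oprm1 was found in 199 of 1000 members, and in 8.33% to 21.7% of members over the 8 mice. In the 4 mice with at least 10 members of both kinds (mice 35 and 73 of NP, 75 and 77 of stress RE; 167 nuclei against 667), edgeR with the mouse as a block called 401 of 9330 genes, 247 higher in Oprm1-positive members (2.65% of genes tested) and 154 lower (1.65%), of which 377 went the same way in 4 of 4 mice. Over all members the median depth was 12418 UMIs with Oprm1 and 10651 without. In the 4 mice it was 11892 against 11849 in mouse 35, 16952 against 18206 in mouse 73, 10857 against 8650 in mouse 75 and 11752 against 11536 in mouse 77, so that mouse 75 had the widest gap and mouse 73 went the other way. Scrublet marked 27.1% of Oprm1-positive and 14.5% of Oprm1-negative members, and Rgs9 had a UMI in 88.9% and 95.8%. Without the marked nuclei 452 genes passed, 315 of them among the 401, and without mouse 35, which is 1 of the 4, 115 passed, 103 higher and 12 lower, so that most of the lower side no longer passed. Of the 58 genes named by the rule in this comparison, 35 did not pass without mouse 35 and 23 did. The lower side also shrank to 94 genes without mouse 73 and 92 without mouse 77, with 205 and 201 higher.

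Of 6 tested striosome genes 4 were higher in Oprm1-positive members. Sema5b, a semaphorin gene, stood at 109, 111, 85.9 and 244 CPM in mice 35, 73, 75 and 77, against 46.0, 27.6, 37.3 and 32.9 CPM in Oprm1-negative members of the same mice (log2 1.72 ± 0.24 SE, edgeR adjusted p = 0.000999). Bach2, a transcription factor gene, stood at 223, 186, 177 and 257 CPM against 61.9, 93.3, 66.7 and 53.8 CPM (log2 1.57 ± 0.17 SE, edgeR adjusted p = 0.000197). In both genes each positive pool lay above each negative pool. Lypd1 (1.31) and Tshz1 (1.02) were higher in 4 of 4 mice. Kremen1 (0.89, higher in 4 of 4) and Rasgrp1 (-0.32, lower in 4 of 4) did not pass. Without the marked nuclei the values were 1.95 for Sema5b, 2.10 for Bach2, 1.46 for Lypd1 and 0.97 for Tshz1, all past the threshold, and without mouse 35 Lypd1 alone of the 4 was not (0.92, edgeR adjusted p = 0.218), nor was it without mouse 73.

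Matrix genes went the other way in part. Of 6 tested, 3 were lower in Oprm1-positive members and 0 higher. Epha4 (-0.42), Gda (-0.18, higher in 2 of 4 mice) and Calb1 (-0.12, higher in 1 of 4) did not pass. Id4, a helix-loop-helix inhibitor gene, stood at 16.8, 0, 34.4 and 19.2 CPM in mice 35, 73, 75 and 77 against 36.8, 47.6, 78.2 and 50.4 CPM (log2 -1.47). Sv2b, a synaptic vesicle gene (-1.04), and Rasgrp2 (-0.83) were lower in 4 of 4 mice. Without mouse 35 none of these 3 passed, with Id4 at -1.53, Sv2b at -0.90 and Rasgrp2 at -0.83 (edgeR adjusted p = 0.064, 0.0988 and 0.0868). The medians over the striosome and matrix lists were 1.16 and -0.63, and that over all genes tested was -0.01.

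**Figure D4:**
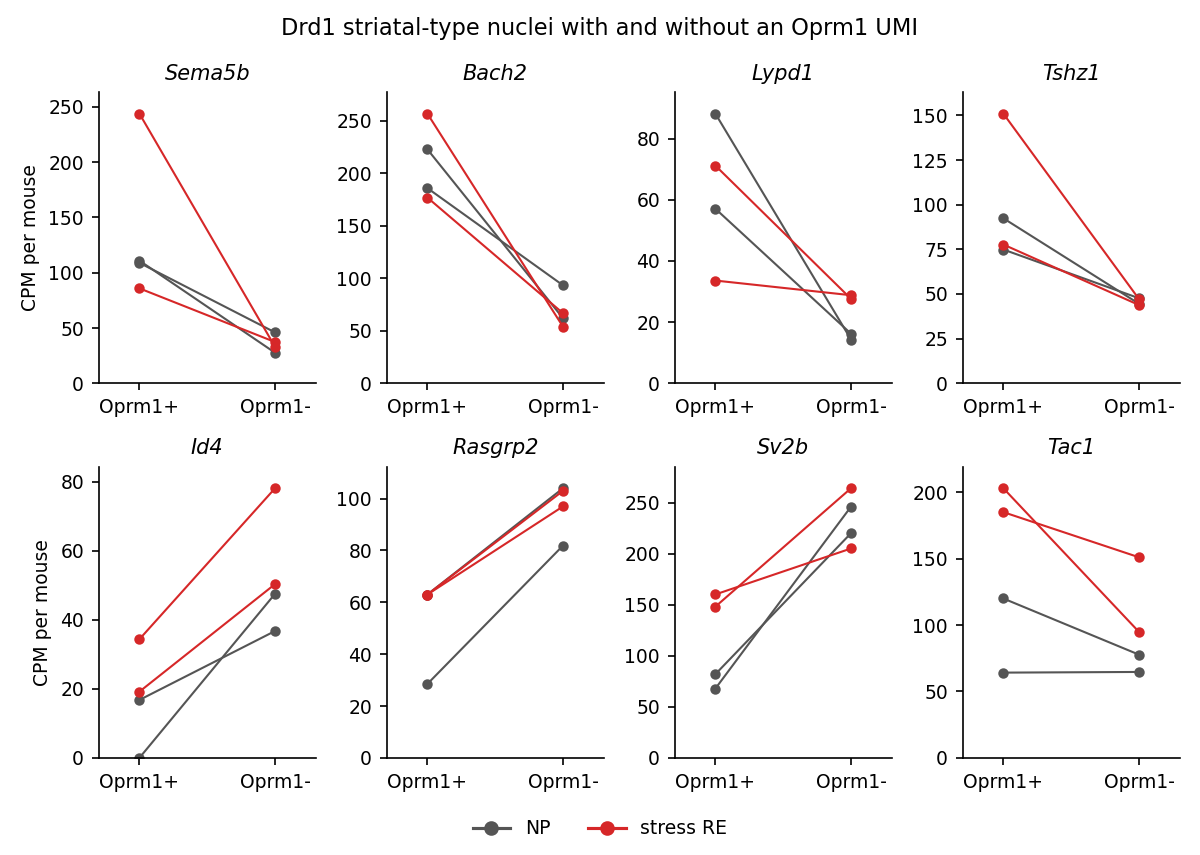
CPM of the summed nuclei in members with (Oprm1+) and without (Oprm1-) an Oprm1 UMI, with a line for each of 4 mice coloured by group. Shown are the 4 striosome and 3 matrix genes that were called, and Tac1. Sema5b, Bach2, Lypd1 and Tshz1 are higher with Oprm1 in 4 of 4 mice, Id4, Rasgrp2 and Sv2b lower in 4 of 4, and Tac1 higher in 3 of 4.

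The peptides were not called in this comparison, with Tac1 at 0.49 and Pdyn at -0.29. The receptor for substance P, Tacr1, was 3.57-fold higher (log2 1.84 ± 0.36 SE, edgeR adjusted p = 0.00978). Of the list of 19 tested cAMP genes, 5 were lower in Oprm1-positive members, Pde2a (-0.80), Rgs9 (-0.79), Gng7 (-0.73), Adcy5 (-0.70) and Ppp1r1b (-0.64), and Pde4b was higher (0.75). Without the marked nuclei, Adcy5 (-0.62, edgeR adjusted p = 0.0704) and Ppp1r1b (-0.46, edgeR adjusted p = 0.158) did not pass. Foxp1 (-0.55) was also lower, in 4 of 4 mice, and so was Ebf1 (-0.82), although in mouse 73 it stood higher in Oprm1-positive members, at 549 against 489 CPM. Without mouse 35 none of these cAMP genes passed, Pde2a at -0.92, Rgs9 at -0.80, Gng7 at -0.83, Adcy5 at -0.78, Ppp1r1b at -0.53 and Pde4b at 0.74 (edgeR adjusted p = 0.0626 to 0.229), nor did Tacr1 (1.51, edgeR adjusted p = 0.115), Ebf1 (-0.67, edgeR adjusted p = 0.302) and Foxp1 (-0.55, edgeR adjusted p = 0.176). Adcy5, Gng7 and Foxp1 did not pass without mouse 73 or without mouse 77 either, Ebf1 without mouse 75 or without mouse 77, and Ppp1r1b without mouse 75.

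Among receptors, the kainate receptor gene Grik3 was higher in Oprm1-positive members, at 37.8, 67.8, 49.9 and 30.1 CPM against 4.09, 3.81, 10.0 and 3.36 CPM (log2 2.85 ± 0.30 SE, edgeR adjusted p = 0.00014). Grik3 is also on the indirect-pathway list, of which 2 genes were tested here, with Ptprm (1.14) not passing. Of 7 tested direct-pathway genes 0 were higher and 1 was lower (Ebf1). Pde4b, Gabra3 and Chrm3 were likewise lower in Drd1-only nuclei and higher here, whereas Sema5b and Tshz1 were higher in both comparisons. The NMDA receptor subunit gene Grin3a (2.13), Grik1 (1.19), Chrm2 (1.63), Chrm3 (1.01) and Gabra3 (1.49) were higher, and Grm3 (-0.76) was lower. Of 4 tested genes of eccentric projection neurons, Col11a1 (1.83) and Adarb2 (1.14) were higher, and the ventral gene Crym (-1.29) was lower. Of 8 tested hormone and stress genes, the corticosteroid-induced kinase gene Sgk1 was lower (-1.19) and Zbtb16 higher (1.07), and the immediate early gene Homer1 was lower (-0.67). Without mouse 35, Grik3 (2.82), Grin3a (1.92), Gabra3 (1.74), Col11a1 (2.04) and Sgk1 (-1.04) still passed, whereas Grik1 (0.90), Chrm2 (1.35), Chrm3 (0.91), Grm3 (-0.85), Adarb2 (1.34), Crym (-1.23), Zbtb16 (1.11) and Homer1 (-0.61) did not (edgeR adjusted p = 0.064 to 0.296). Grik1, Chrm2, Chrm3, Gabra3 and Homer1 did not pass without mouse 73, Zbtb16 without mouse 75, and Gabra3, Crym and Homer1 without mouse 77. None of the 4 dorsal striatal genes, of 3 tested dopamine-handling genes, of 1 tested amygdala gene and of 14 tested genes of other cells passed. Of 6 interneuron genes only 1 was tested (Lamp5), so interneuron RNA was hardly covered. In mice 35, 73, 75 and 77 Vip stood at 2.1, 0, 0 and 38.3 CPM against 0.511, 0, 0 and 0. Npy stood at 29.4, 0, 4.91 and 0 CPM against 0, 3.81, 13.2 and 2.69. Sst stood at 33.6, 0, 6.55 and 0 CPM against 3.07, 0, 25.6 and 0.672. Their part in the result was not tested. The median log2 difference over tested genes was 0.55 for the excitatory neuron list and -0.82 for the oligodendrocyte list, whose part in the result was not tested.

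By size, the genes named on the higher side were Zp3r (3.04), Grik3, Ipcef1 (2.75), the adhesion gene Sdk1 (2.72), Gm29478 (2.56), Gm16083 (2.53), the netrin receptor gene Unc5d (2.43), Zfp804b (2.42), Vwc2l (2.41), the formin gene Fhod3 (2.40), the neurexophilin gene Nxph1 (2.38) and 4 non-coding genes of 1 stretch of chromosome 8. Ipcef1 overlaps Oprm1 by 152 kb on the opposite strand. Whether reads of Oprm1 were counted for Ipcef1 was not tested, so Ipcef1 is not taken as an independent value. Zp3r lies 19.6 kb from Gm16083, which is antisense to and overlaps Cd55. On the lower side stood Plce1 (-1.98), Frem2 (-1.91), the ectonucleotidase gene Entpd1 (-1.71), 4921539H07Rik (-1.68), Dchs2 (-1.55), Mei4 (-1.51), Kctd8 (-1.51), Gm19410 (-1.51), Id4, Spata16 (-1.41), Gm13974 (-1.38), D7Ertd443e (-1.37), Pifo (-1.36), Gm30382 (-1.34) and Tspear (-1.33). Without mouse 35, Gm29478 (1.66) and Nxph1 (2.07) of the higher side did not pass, and of the lower side only Dchs2 (-1.50), Mei4 (-1.39) and Kctd8 (-1.56) did.

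The chromosome 8 stretch, GRCm38 chr8:49370886-50916997 (1.55 Mb), held 6 tested long non-coding RNA genes, and all 6 were higher in Oprm1-positive members. They were 4930555F03Rik (2.68), Gm45323 (2.66), C130073E24Rik (2.51), Gm2516 (2.39), Gm45341 (2.33) and Gm45321 (2.14). Gm2516 and Gm45341 overlap on opposite strands by 48.0 kb. The stretch and the last 2 of these genes were picked after their values were seen.

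The third comparison asked whether gene expression within the members differed between the groups of mice. It rested on 2 NP, 3 control RE and 3 stress RE mice with 10 or more members, in which 0 of 10073 genes (0%) passed an edgeR adjusted p of 0.05 in each of the 3 contrasts. At an unadjusted p of 0.05 there were 807 of the 10073 genes for stress RE minus control RE, 367 for control RE minus NP and 392 for stress RE minus NP. By chance alone a share of about 0.05 of the genes tested falls under this p, so these counts are not calls. The count for stress RE minus control RE lay above this share, and those of the other contrasts lay below it. DESeq2 called 3, 1 and 0. The groups did not overlap for 14.2%, 14.9% and 20.7% of genes tested, and the control RE pools were the smallest, at 250888, 274233 and 369643 UMIs. The contrasts share their mice, so their values are given side by side.

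The genes with the smallest p in each direction, none of which passed, are described by their levels. Gpc5, a glypican gene, stood at 108 and 114 CPM in NP mice 35 and 73, at 3.99, 21.9 and 35.2 CPM in control RE mice 66, 72 and 87, and at 172, 127 and 94.5 CPM in stress RE mice 43, 75 and 77. The control RE mice were thus lowest, with log2 differences of 2.49 ± 0.41 SE for stress RE minus control RE (edgeR adjusted p = 0.205) and -2.33 ± 0.43 SE for control RE minus NP (edgeR adjusted p = 1). DESeq2 gave adjusted p = 9.3e-05 and 0.00826. Cntnap5c, an adhesion gene, stood at 214 and 274 CPM in NP, 462, 478 and 311 CPM in control RE and 190, 164 and 194 CPM in stress RE, highest in control RE (stress RE minus control RE -1.23 ± 0.19 SE, edgeR adjusted p = 0.205, DESeq2 6e-05).

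The copine gene Cpne8 had 78.6 and 49.6 CPM in NP, 27.9, 25.5 and 27.1 CPM in control RE and 78.7, 71.6 and 80.4 CPM in stress RE (1.46 ± 0.28 SE, edgeR adjusted p = 0.507). The remaining genes so named for stress RE minus control RE were Rpl7a (2.60), Tmem158 (1.60), Eda (-1.06), Ubash3b (-1.51) and Trpc5 (-1.01). For control RE minus NP they were Tmem132d (1.78), Ubash3b (1.66), Gm32647 (1.64), Trpc5 (1.04), Stat3 (-1.83), Cpne8 (-1.28), the serotonin receptor gene Htr2c (-0.72) and Garem1 (-0.65).

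For stress RE minus NP, the genes of smallest p were Mif (2.46), Hsbp1 (1.40), Ppia (1.27), Rpl23 (1.25) and Fam204a (1.03) on the higher side and the prolactin receptor gene Prlr (-2.32), Nwd2 (-2.16), Sfxn5 (-0.57), Sntb2 (-0.50) and Htr2c (-0.50) on the lower side. Prlr stood at 12.8 and 9.02 CPM in NP, 7.97, 10.9 and 0 CPM in control RE and 1.36, 1.95 and 3.24 CPM in stress RE. It is a sparse gene, and its difference from NP did not pass (edgeR adjusted p = 1).

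**Figure D5:**
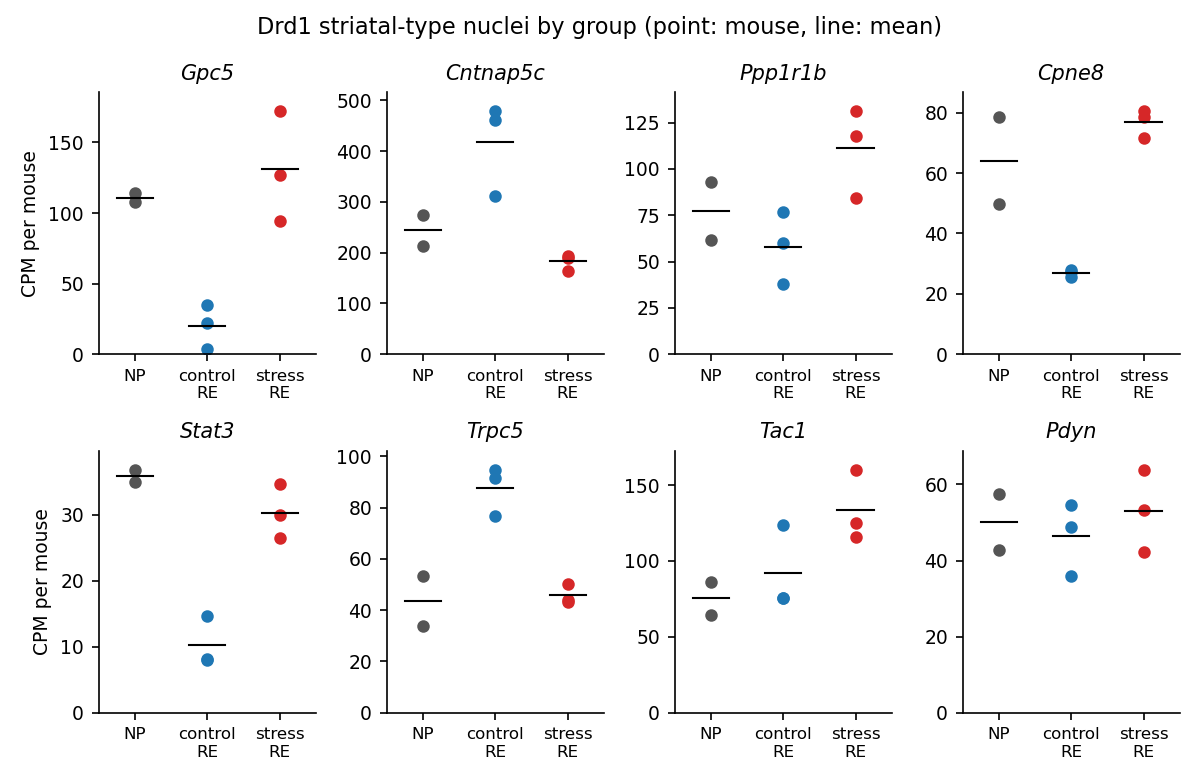
CPM of the summed nuclei in Drd1 striatal-type nuclei of 8 mice for 8 genes, with a point for each mouse, a line for the group mean and each vertical axis starting at 0. Gpc5 and Cpne8 are lowest in the 3 control RE mice and Cntnap5c highest, Ppp1r1b is higher in the 3 stress RE than in the 3 control RE mice, and no gene passed the edgeR threshold in any contrast.

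The direct-pathway peptides showed no called difference. Tac1 stood at 86.0 and 64.6 CPM in NP, 75.7, 124 and 75.7 CPM in control RE and 125, 160 and 116 CPM in stress RE (stress RE minus NP 0.77 ± 0.22 SE, edgeR adjusted p = 1; stress RE minus control RE 0.51 ± 0.23 SE, edgeR adjusted p = 0.607). Pdyn stood at 57.6 and 42.8, then 35.9, 54.7 and 48.7, then 63.8, 42.2 and 53.4 CPM, with the 3 groups overlapping. Ppp1r1b stood at 93.0 and 61.6 CPM in NP, 59.8, 76.6 and 37.9 CPM in control RE and 84.1, 131 and 118 CPM in stress RE (stress RE minus control RE 0.95 ± 0.28 SE, edgeR adjusted p = 0.507). The stress RE values of Ppp1r1b lay above those of control RE and did not pass.

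No gene of any list passed in any contrast. The medians of the dopamine and cAMP list were 0.09, -0.13 and -0.03 for stress RE minus control RE, control RE minus NP and stress RE minus NP, where all genes tested had 0.00, -0.01 and -0.01. Those of the hormone and stress list were -0.14, -0.13 and -0.25, with Nr3c1, the glucocorticoid receptor gene, at 0.24 and its target Fkbp5 at -0.01 for stress RE minus control RE. Of 15 tested genes of other cells 0 passed in each contrast, but their values differed. For control RE minus NP, the astrocyte genes Slc1a3 and Slc1a2 stood at -1.76 ± 0.74 SE and -0.26 ± 0.35 SE. Summed choroid plexus genes ran from 21.0 to 37.6 CPM in NP, 3.65 to 23.9 in control RE and 22.7 to 47.8 in stress RE, and summed microglial genes from 13.5 to 38.7, 23.9 to 43.8 and 34.0 to 65.5 CPM. Summed oligodendrocyte genes ran from 102 to 241, 83.7 to 226 and 111 to 337 CPM, astrocyte genes stood at 121 CPM in both NP mice and ran from 51.1 to 147 and 101 to 172 CPM in control RE and stress RE, excitatory neuron genes ran from 39.1 to 87.9, 54.7 to 132 and 13.6 to 103 CPM, and interneuron genes from 24.8 to 50.6, 32.5 to 63.8 and 20.4 to 63.2 CPM. Folr1 was at 0 in every mouse but 35 and 75, Kl in control RE mice 72 and 87, and C1qa in every mouse but 75 and 77. Their part in the values above was not tested.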

How the data were processed

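Nuclei were profiled by 10x 3′ v3.1 sequencing, 1 library per mouse. The authors deposited filtered matrices of raw UMI counts per gene and barcode for 32285 genes, made per their notes with Cell Ranger 7.1.0 on mm10; later steps of the study (ambient RNA, doublet and integration steps) are not part of these files. Overlapping genes can share reads. Coordinates are GRCm38 (GENCODE vM21), and upstream sequences are RefSeq's.

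Counts of members were summed per mouse, in mice with at least 10 nuclei of each kind compared, and tested with edgeR 4.0.16 (filterByExpr, TMM, quasi-likelihood, Benjamini-Hochberg, threshold 0.05), with group as the factor or, within mice, with the mouse as a block. The block is by design, because both kinds of nuclei come from the same mouse and library. The SE of a log2 difference was derived from the edgeR F statistic. CPM are UMI counts of the summed nuclei scaled to 1000000 and are not compared between genes. Scripts were tested on simulated data. Shares were tested by exact two-sided permutation over mice, with 95% Wilson intervals for counting error only. The labels name separate mice, and the replicate numbers used for leaving out a mouse are names that pair nothing between groups.

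Named genes were, among those past the threshold, the 15 largest changes in each direction that went the same way in every mouse; where fewer than 5 passed between groups, the 5 smallest p in each direction; any gene of the lists; and the 15 genes with the highest fold of members over other nuclei, detected in at least 20% of members. A few genes that this rule names are not reported here. Members and lists were chosen with earlier results of these data known. The Oprm1 comparison and the Rgs9 alternative were added after seeing the data.

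Alternatives were DESeq2 1.42.0, RLE size factors, no count filter, other minimum numbers of nuclei, equal numbers of nuclei, a batch term, Drd1 of at least 2 UMIs, thinning to 2000 UMIs, removal of nuclei marked by Scrublet (scanpy 1.11.5), and leaving out each mouse.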

Additional observations from a re-analysis of the deposited data

Results flagged for a closer look

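In NP, mouse 35 stood far from the other 5 mice in 3 measures. It held 2.28% Drd1 striatal-type nuclei, 2.21% such nuclei with Rgs9 and 2.32% Drd2-only nuclei of the same gate, where the NP medians were 0.122%, 0.0459% and 0.0759%. The first 2 measures share nuclei and the Drd2-only nuclei are other nuclei, but all 3 come from the tissue and library of 1 mouse. The mark was Dixon's ratio of gap to range, at 0.629, 0.639 and 0.74 against a critical value of 0.625. The 3 marks came from 12 combinations of group and measure examined. Chance alone marks about 1 in 20 where values are normally spread, and the NP shares were skewed (first measure, mean 0.592%). NP mouse 73 was next, at 0.881%, 0.799% and 0.623%. The library of mouse 35 was not unusual in size, with 65872952 UMIs and 9088 barcodes.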

How the results depend on the processing

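The share of members kept its direction and side of the threshold in each contrast under all alternatives run. The Drd1-only share of striatal-type nuclei, control RE minus NP, turned from -0.377 to 1.38 with thinning, to 3.95 with at least 20 striatal-type nuclei and to 14.5 with Rgs9 required, and ran from -5.04 to 3.95 as each mouse was left out; stress RE minus control RE turned to -3.79 with Rgs9 required. Calls between Drd1-only and Drd2-only nuclei numbered 110 with equal nuclei (fewer nuclei were used) and 217 with no replicate block (mice unpaired). For Oprm1 there were 732 calls without a count filter, 250 with Rgs9 required (3 mice), 78 with no replicate block, and 115 to 419 as each mouse was left out. Between groups, 22257 genes were tested without a count filter. Of these, 40 passed for control RE minus NP, 147 for stress RE minus control RE and 21 for stress RE minus NP, against 0 with it. DESeq2 called 1 and 3 in the first 2, and equal nuclei called 1 for stress RE minus NP (Pde1a). In that contrast Nwd2 moved to -3.04 without mouse 35, where NP is mouse 73 alone, assumed to vary like the other groups. The 2 NP mice stood at 14.4 and 149 CPM for Nwd2. Among named genes that did not pass, Gm32647 (control RE minus NP) turned to -1.19 and Htr2c (stress RE minus NP) to 0.13 with at least 5 nuclei, Sfxn5 to 0.15 with equal nuclei and Nwd2 to 0.27 without mouse 73. The causes were not tested. No paired analysis of the groups was possible because the labels pair no mice between groups. Whether pool size limited the calls was not tested.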
